A study of Mus musculus with 16 samples.

Results

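Fibroblast growth factor (FGF) signalling in the branching fetal lung was followed through 10 genes chosen by symbol from the 57180 genes counted: the ligands Fgf7, Fgf9, Fgf10 and Fgf18, the receptor Fgfr2, and the target and feedback genes Spry2, Spry4, Etv4, Etv5 and Dusp6. All 10 were present in the counts and all 10 passed the filter on low counts. RNA came from lungs of male mouse fetuses at E14.5 (embryonic age in days, a stage of active airway branching) of the inbred strains C57BL/6J (B6) and A/J. Their mothers were dosed by mouth from E9.5 to E14.5, either with BMS493, which acts on every retinoic acid receptor as an inverse agonist, at 3.75 µg per g of body weight per day, or with corn oil as control. The 16 poly(A)-selected libraries form 4 groups of 4: B6 control, B6 BMS493, A/J control and A/J BMS493. The labels give no edited gene in either strain. Which of the fetuses were littermates is not given in the labels, so the p-values measure the spread between these libraries.

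FGF ligands are secreted proteins that bind receptor tyrosine kinases together with heparan sulfate and signal mainly through the ERK cascade. In the lung bud, Fgf10 and Fgf7 are made by the mesenchyme and act on the epithelium through the IIIb form of Fgfr2, while Fgf9 comes from the mesothelium and epithelium and acts largely on the mesenchyme. The receiving cells switch on the ETS transcription factors Etv4 and Etv5 and, as a brake, the Sprouty proteins Spry2 and Spry4 and the ERK phosphatase Dusp6, so that the messages of these genes are widely used as a readout of FGF activity. Retinoic acid is known to act upstream of Fgf10 when the lung buds first form.

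Promoter sequence is shown for Fgf7 and Fgf18, the ligands called between strains under both treatments, and for Spry2, whose level was correlated with that of Fgf18 among libraries in a test that rested on single libraries. Each run holds the 250 bases before the RefSeq start site on the gene's strand (GRCm38.p6), and capitals mark a match to AGGTCA, the hexamer that retinoic acid receptors bind in pairs, or to CCGGAA, an ETS core; both strands were searched, and the letters of the motifs do not overlap each other here. The Fgf7 run lies at chr2:126034408-126034657 on the plus strand, that of Fgf18 at chr11:33147401-33147650 on the minus strand, and that of Spry2 at chr14:105896820-105897069 on the minus strand. A further Spry2 stretch, at chr14:105896773-105896802 and bases 18 to 47 after the start, holds both motifs.
Fgf7: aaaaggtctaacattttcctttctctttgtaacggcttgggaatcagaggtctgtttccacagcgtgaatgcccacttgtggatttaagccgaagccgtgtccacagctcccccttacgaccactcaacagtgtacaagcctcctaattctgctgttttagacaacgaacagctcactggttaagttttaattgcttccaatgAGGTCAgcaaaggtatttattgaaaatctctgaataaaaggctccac
Fgf18: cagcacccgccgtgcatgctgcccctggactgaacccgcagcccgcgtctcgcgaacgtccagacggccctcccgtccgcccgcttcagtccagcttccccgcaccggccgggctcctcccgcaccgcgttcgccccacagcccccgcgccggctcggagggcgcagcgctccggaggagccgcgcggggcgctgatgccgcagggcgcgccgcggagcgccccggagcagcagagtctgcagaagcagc
Spry2: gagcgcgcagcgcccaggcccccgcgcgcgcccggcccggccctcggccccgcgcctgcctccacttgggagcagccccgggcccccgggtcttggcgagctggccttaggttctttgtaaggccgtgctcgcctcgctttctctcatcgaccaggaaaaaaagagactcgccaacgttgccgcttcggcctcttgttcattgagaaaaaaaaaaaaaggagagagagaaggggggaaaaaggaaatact
Spry2, after the start: agggAGGTCAtctatcCCGGAAtccgggag
The Fgf7 hexamer begins 47 bases before the start. In windows of 300 bases, from 250 before to 50 after the start, 8 of the 10 genes had an entry. Matches were found in those of Fgf7 (AGGTCA) and Spry2 (both motifs), and no match to these letters was found in the windows of Fgf9, Fgf10, Fgf18, Fgfr2, Etv5 or Dusp6. Of all 32851 RefSeq windows of that length, 14.9% held CCGGAA and 16.3% AGGTCA. The matches describe letters in a window, and nothing here measured binding.

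Each library held 15207539 to 24146224 counts in genes, at which 10 of 10 FGF genes had at least 14 counts in every library. The treatment was checked with Cyp26b1, the retinoic acid degrading enzyme, and Rarb, a receptor gene that is itself a direct target. Cyp26b1 stood at 18.2 ± 5.14 CPM (counts per 1e+06 gene counts; SD, n = 4) in B6 control against 1.47 ± 0.667 in B6 BMS493 lungs, and at 19.9 ± 5.73 against 1.05 ± 0.276 in A/J. Rarb stood at 8.38 ± 0.759 against 4.19 ± 1.82 CPM in B6 and at 9.09 ± 0.967 against 3.10 ± 0.624 in A/J. All 5 retinoic acid genes listed were called lower in B6, and 4 of the 5 in A/J (edgeR's quasi-likelihood test). The others were Lrat and Stra6, which act in retinol storage and uptake, and the reductase gene Dhrs3, at -2.51, -1.15 and -1.31 on the log2 scale in B6 and -5.53, -0.76 and -2.07 in A/J, where Stra6 was not called (adjusted p = 0.172). In B6 the Rarb call was lost without any 1 of the 4 control libraries or BMS493 library 2 (adjusted p = 0.0520 to 0.0790), and the Stra6 call without any 1 of the 4 controls or BMS493 library 2 or 3 (0.0693 to 0.0957). Between strains Lrat and Stra6 were higher in A/J controls (3.57 and 0.72), the Stra6 call being lost without B6 control library 1, 2 or 4 or A/J control library 2 (adjusted p = 0.0574 to 0.1002), and with BMS493 Stra6 was higher (1.11) and Dhrs3 lower (-0.76). Summed markers of lung epithelium were 1059 CPM or more in every library and those of lung mesenchyme 2425 CPM or more, while liver, skeletal muscle, and esophagus and stomach markers summed to at most 12.5, 2.32 and 5.79 CPM. Heart markers summed to 4.82 to 34.8 CPM, with Tnnt2 called lower in A/J controls, as was the liver marker Alb (log2 difference -3.16, edgeR adjusted p = 0.0294), and cartilage markers to 86.3 to 177 CPM. Library 2 of the B6 BMS493 group stood apart in epithelial markers (2598 CPM against 1468 to 1925 in the other 3), and library 3 of that group in mesenchymal markers (6529 against 3596 to 3863), where Col1a1 alone reached 5613 CPM.

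Per kilobase of exon, the targets Etv5 and Dusp6 had the highest levels, followed by the receptor Fgfr2, and the ligands Fgf9 and Fgf7 the lowest. The length used joins all annotated exons of a gene, whichever form of the message holds them. It was 10.3 kb for Fgfr2 and 3.13 kb for Dusp6. Without division by length Fgfr2 stood above Dusp6, at a mean of 253 against 88.9 CPM, so their order rests on the length used. Over all 16 libraries the mean level was 97.1 CPM per kb for Etv5, 28.4 for Dusp6, 24.5 for Fgfr2, 15.8 for Spry2, 10.2 for Etv4, 8.58 for Fgf10, 6.62 for Fgf18, 4.90 for Spry4, 1.84 for Fgf9 and 0.826 for Fgf7. Neighbours in this order overlapped in their range over libraries except at 3 steps, from Etv5 to Dusp6, from Fgfr2 to Spry2 and from Spry4 to Fgf9. The span from the lowest to the highest library was narrowest for Fgfr2 (1.28-fold) and widest for Fgf7 (9.0-fold).

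**Figure D1:**
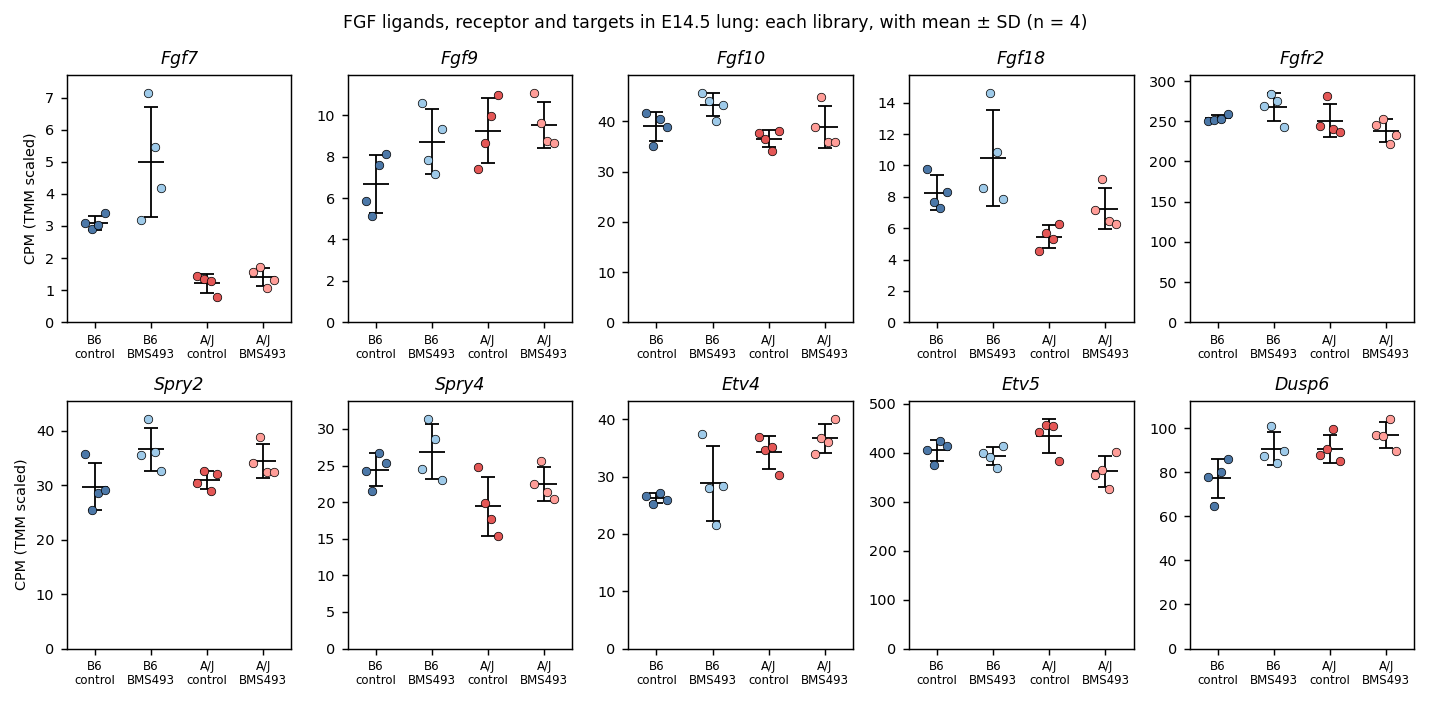
Level of each FGF gene in CPM (counts per 1e+06 gene counts, scaled by the trimmed mean of M-values), 1 point per library and a bar for mean ± SD of 4 libraries, with every axis starting at 0. Fgf7 in A/J stayed at or under 1.72 CPM in all 8 libraries while the B6 libraries lay at 2.89 CPM or above.

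Fgf7, the mesenchymal ligand also called keratinocyte growth factor, had the largest strain difference of the 10 genes under both treatments. B6 control libraries 1 to 4 held 3.09, 2.89, 3.02 and 3.41 CPM, and A/J control libraries held 1.45, 1.34, 1.28 and 0.794 CPM. The BMS493 libraries held 3.18, 7.15, 5.47 and 4.19 CPM in B6 and 1.58, 1.72, 1.07 and 1.31 CPM in A/J. Every A/J library thus lay below every B6 library under both treatments. In control lungs the A/J level was 0.397 times that of B6 (log2 difference -1.33, SE 0.25, 95% confidence interval -1.86 to -0.81, edgeR adjusted p = 0.000474), and in BMS493 lungs 0.284 times (-1.81, SE 0.24, interval -2.32 to -1.31, adjusted p = 4.40e-06). Both calls held under all 25 alternatives tried, with adjusted p up to 0.00607 in controls and 0.000414 with BMS493. Fgf7 rested on 14 to 169 counts per library, the fewest of the set. BMS493 lungs of B6 gave a log2 difference of 0.70 from control (interval 0.23 to 1.17, unadjusted p = 0.00542, edgeR adjusted p = 0.282), which did not pass; without B6 BMS493 library 2, the one with 7.15 CPM and the highest epithelial marker sum, it was 0.46. In A/J the difference was 0.21 (interval -0.34 to 0.77), and the test of the difference between the strains' responses gave -0.48 (interval -1.21 to 0.25, edgeR adjusted p = 0.999).

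Several marker sums also differed between strains. Of all genes tested, 16.9% were called between strains in controls and 20.0% with BMS493, the shares beside which the counts of called markers stand. Epithelial markers summed to 1440 to 1636 CPM in B6 and 1059 to 1257 CPM in A/J controls, with 9 of the 11 genes lower in A/J and 4 called (Krt18, Epcam, Krt8 and Sftpc). Mesenchymal markers summed to 4060 to 4272 against 2425 to 3238 CPM, a sum made up largely of the collagen gene Col1a1 (3113 ± 88.1 against 1848 ± 304 CPM); 3 of the 8 were lower in A/J and 2 were called (Tcf21 and Col1a1), while the other 5 were higher without a call. Endothelial markers were lower in A/J for 6 of 6 genes, with 5 called in controls (Pecam1, Tek, Tie1, Cdh5 and Emcn) and 6 with BMS493; their sums were 1110 to 1219 CPM in B6 and 817 to 982 CPM in A/J controls, and 1042 to 1319 against 798 to 985 CPM with BMS493. Erythroid markers summed to 368 to 480 CPM in B6 and 572 to 940.0 CPM in A/J controls, with 2 of 6 called higher, Hbb-bh1 and Hbb-y. With BMS493, 5 of 11 epithelial markers were called lower, and 2 mesenchymal markers lower and 1 higher. Mesothelial markers, of a cell layer that makes Fgf9, summed to 182 to 202 CPM in B6 and 193 to 211 CPM in A/J controls; 1 of 7 was called higher (Wt1) and 1 lower (Upk1b) in controls, and 3 higher and 3 lower with BMS493. Smooth muscle had 1 of 5 called higher (Actg2) and 1 lower (Acta2) in each comparison, and macrophage markers 0 of 5 in controls (2 at an unadjusted p under 0.05) and 1 higher and 1 lower with BMS493, all by edgeR. In whole lung, fewer cells of a type and less RNA per cell cannot be told apart, and the part of these sums in the strain differences was not tested.

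Fgf18, a mesenchymal ligand of distal lung growth, was also lower in A/J. The B6 control libraries held 9.80, 7.64, 7.27 and 8.33 CPM and the A/J control libraries 4.53, 5.71, 5.28 and 6.30 CPM, with no overlap. With BMS493 they held 8.53, 14.6, 10.9 and 7.87 CPM in B6 and 7.14, 9.15, 6.47 and 6.25 CPM in A/J, where the ranges met. The A/J level was 0.661 times that of B6 in controls (log2 difference -0.60, SE 0.18, edgeR adjusted p = 0.0220) and 0.690 times with BMS493 (-0.53, SE 0.17, adjusted p = 0.0300). Unlike the Fgf7 calls, these rested on single libraries. In controls the adjusted p was 0.0927 without B6 library 1 and 0.0792 without A/J library 1. With BMS493 it was 0.216 without B6 library 2 (log2 difference -0.32), 0.0708 without A/J library 1, 0.0922 without A/J library 3 and 0.0995 without A/J library 4. The BMS493 lungs differed from control by 0.35 in B6 (interval -0.0046 to 0.71) and by 0.41 in A/J (0.044 to 0.79) on the log2 scale; without B6 BMS493 library 2, the one with 14.6 CPM, the B6 value was 0.14. Averaged over strains, Fgf18 had a log2 difference of 0.38 (SE 0.12, interval 0.13 to 0.64, unadjusted p = 0.00510, edgeR adjusted p = 0.166), and no call.

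Fgf10, the ligand that draws out the distal buds, lay in a narrow band. B6 control libraries held 41.7, 35.03, 40.6 and 38.9 CPM and B6 BMS493 libraries 45.7, 44.1, 40.2 and 43.4 CPM. A/J control libraries held 37.7, 36.5, 34.2 and 38.1 CPM and A/J BMS493 libraries 38.8, 44.9, 35.9 and 36.0 CPM. Groups overlapped in all 4 comparisons. The log2 difference between BMS493 and control was 0.15 in B6 (interval -0.012 to 0.32, edgeR adjusted p = 0.574), 0.088 in A/J (-0.075 to 0.25, adjusted p = 0.992) and 0.12 averaged over strains (0.0043 to 0.24, adjusted p = 0.433). The largest change these intervals hold is 1.24-fold in B6 and 1.19-fold in A/J. A/J lay at 0.937 times the B6 level in controls and 0.897 times with BMS493 (edgeR adjusted p = 0.479 and 0.179); the second reached an adjusted p of 0.0417 when A/J BMS493 library 2 was left out. The Fgf10 exons overlap 123 bases of the antisense gene Gm16263, and the count without strand kept 84.4% of the counts that the strand columns together held, against 99.9% or more for the other 9 genes.

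Fgf9, the mesothelial and epithelial ligand, ranged from 5.12 to 8.13 CPM in B6 control, 7.14 to 10.6 in B6 BMS493, 7.43 to 11 in A/J control and 8.66 to 11.1 in A/J BMS493 libraries. B6 control libraries were thus the low group. A/J controls lay at 1.39 times the B6 level (log2 difference 0.48, SE 0.16, edgeR adjusted p = 0.0432), and the call was lost without B6 control library 1 or 2 (adjusted p = 0.124 and 0.173) or A/J control library 2, 3 or 4 (0.0577, 0.0951 and 0.147). With BMS493 the strains differed by 0.12 (interval -0.20 to 0.45). BMS493 against control gave 0.40 in B6 (interval 0.060 to 0.74, edgeR adjusted p = 0.451) and 0.044 in A/J (-0.28 to 0.37).

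Fgfr2, the receptor of Fgf7 and Fgf10, was the steadiest of the 10 genes. Its level was 254 ± 4.24 CPM in B6 control, 268 ± 17.5 in B6 BMS493, 251 ± 20.5 in A/J control and 238 ± 14.2 in A/J BMS493 lungs (SD, n = 4 each). BMS493 against control gave a log2 difference of 0.080 in B6 (interval -0.049 to 0.21) and -0.074 in A/J (-0.20 to 0.054). These intervals hold no change larger than 1.16-fold in B6 or 1.15-fold in A/J. The strains differed by -0.015 in controls (interval -0.14 to 0.11) and by -0.17 with BMS493 (-0.30 to -0.041, edgeR adjusted p = 0.0574), which did not pass. That difference did pass with DESeq2 (adjusted p = 0.0497), with the library number set (1 to 8 or 9 to 16 in the labels) as a covariate (edgeR adjusted p = 0.0423), and when B6 BMS493 library 4, A/J control library 2 or 4, or A/J BMS493 library 2 was left out (0.0220 to 0.0478). Counts per gene do not separate the IIIb and IIIc forms of the receptor. Among the other receptors, Fgfr3 was called lower in A/J under both treatments (log2 difference -0.69 in each, edgeR adjusted p = 1.99e-05 in controls and 1.90e-05 with BMS493), at 65.9 ± 4.35 CPM against 107 ± 6.10 in control lungs. Fgfr1 had a log2 difference of 0.078 between BMS493 and control averaged over strains and was not called in any of the 6 contrasts. Fgfr4, the epithelial receptor gene with the largest of these BMS493 differences, had 38.0 ± 2.94 and 53.1 ± 12.8 CPM in B6 control and BMS493 lungs and 34.7 ± 6.06 and 45.3 ± 7.04 CPM in A/J, a log2 difference of 0.43 averaged over strains (SE 0.11) that did not pass (edgeR adjusted p = 0.0690).

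Etv4, one of the ETS factors, was higher in A/J: control libraries held 26.7, 25.2, 27.2 and 26.0 CPM in B6 against 36.9, 34.6, 35.2 and 30.2 CPM in A/J, with no overlap. With BMS493 it stood at 37.5, 28.0, 21.6 and 28.4 CPM in B6 and 33.9, 36.7, 36.0 and 40.0 CPM in A/J, where B6 library 1 lay within the A/J range. A/J was at 1.305 times the B6 level in controls (log2 difference 0.38, SE 0.11, edgeR adjusted p = 0.0158) and 1.27 times with BMS493 (0.34, SE 0.11, adjusted p = 0.0283). In controls the adjusted p was 0.0507 without B6 library 2 and 0.0515 without A/J library 1. With BMS493 the call was lost without B6 library 2, 3 or 4 (adjusted p = 0.0729, 0.0958 and 0.0588; log2 difference 0.22 without library 3) or A/J library 3 or 4 (0.0522 and 0.0921). BMS493 against control gave 0.14 in B6 and 0.098 in A/J, both with intervals that span 0.

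Etv5, the most abundant of the set, was the one gene whose BMS493 difference was negative in both strains. B6 control libraries held 406, 374, 424 and 414 CPM and B6 BMS493 libraries 398, 391, 369 and 413 CPM. A/J control libraries held 441, 457, 454 and 384 CPM and A/J BMS493 libraries 355, 365, 325 and 402 CPM. In A/J the groups met only through control library 4 and BMS493 library 4, and the BMS493 library was the higher in 1 of the 16 pairings of a control with a BMS493 library. The log2 difference was -0.26 in A/J (SE 0.067, interval -0.40 to -0.13, unadjusted p = 0.000607, edgeR adjusted p = 0.0919) and -0.042 in B6 (interval -0.18 to 0.096, adjusted p = 0.895). The A/J value missed the threshold with edgeR and passed it with DESeq2 (adjusted p = 0.0270), and it also passed without A/J control library 4 (log2 difference -0.32, adjusted p = 0.0163), without A/J BMS493 library 4 (-0.32, 0.0334) and without B6 BMS493 library 3 (0.0417). A/J control library 4 was also the lowest of its group in epithelial markers (1059 CPM against 1213 to 1257), mesenchymal markers (2425 against 3009 to 3238), smooth muscle markers (834 against 1030 to 1049) and endothelial markers (817 against 900.1 to 982). It also had the lowest share of fragments in genes of the 16 libraries (71.7%), and 8.68% of its fragments fell outside annotated genes, against 4.92% to 6.64% in the other A/J controls. The part of these in Etv5 was not tested. The responses of the strains differed by -0.22 (interval -0.42 to -0.026, unadjusted p = 0.0283, edgeR adjusted p = 0.999), so a difference between them was not shown.

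Spry2, the Sprouty gene best known from the lung bud, was at 35.6, 25.4, 28.6 and 29.1 CPM in B6 control and 35.6, 42.1, 36.1 and 32.7 CPM in B6 BMS493 libraries. In A/J it was at 30.4, 32.6, 29.0 and 32.0 CPM in control and 34.1, 38.9, 32.3 and 32.4 CPM in BMS493 libraries. The BMS493 library was the higher in 14 of 16 pairings in each strain, though B6 control library 1 lay within the range of the treated group. The log2 difference was 0.31 in B6 (SE 0.097, interval 0.11 to 0.51, edgeR adjusted p = 0.241), 0.15 in A/J (interval -0.045 to 0.35, adjusted p = 0.941) and 0.23 averaged over strains (SE 0.068, interval 0.090 to 0.37, unadjusted p = 0.00241, adjusted p = 0.105). The last passed without B6 control library 1 (0.28, adjusted p = 0.0302). Strains differed by 0.064 in controls and -0.091 with BMS493, with intervals of -0.14 to 0.26 and -0.29 to 0.11.

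Spry4, the second Sprouty gene, ranged from 21.5 to 26.8 CPM in B6 control, 23.0 to 31.3 in B6 BMS493, 15.3 to 24.8 in A/J control and 20.4 to 25.6 in A/J BMS493 libraries. A/J controls were spread most, with library 1 (24.8 CPM) inside the B6 range. The strain difference was -0.33 in controls (SE 0.12, edgeR adjusted p = 0.0723) and -0.26 with BMS493 (SE 0.12, adjusted p = 0.148), and the first passed without A/J control library 1 (-0.46, adjusted p = 0.00988). BMS493 against control gave 0.14 in B6 and 0.21 in A/J, with intervals that span 0.

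Dusp6, the phosphatase that shuts off ERK, was at 77.8, 64.9, 79.9 and 86.2 CPM in B6 control and 87.4, 101, 84.1 and 89.9 CPM in B6 BMS493 libraries. A/J control libraries held 87.7, 90.8, 99.6 and 85.0 CPM and A/J BMS493 libraries 96.9, 96.6, 104 and 89.5 CPM. B6 controls were again the low group, and their library 4 reached the range of the B6 BMS493 and A/J control libraries. A/J controls were at 1.18 times the B6 level (log2 difference 0.24, SE 0.078, edgeR adjusted p = 0.0378). That call was lost without B6 control library 1, 2 or 3 (adjusted p = 0.0730, 0.183 and 0.0536) or A/J control library 1, 2 or 3 (0.050, 0.0729 and 0.125), and with BMS493 the strains differed by 0.093 (adjusted p = 0.448). BMS493 against control gave 0.24 in B6 (SE 0.078, interval 0.074 to 0.40, unadjusted p = 0.00608, edgeR adjusted p = 0.298) and 0.092 in A/J (interval -0.068 to 0.25).

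**Figure D2:**
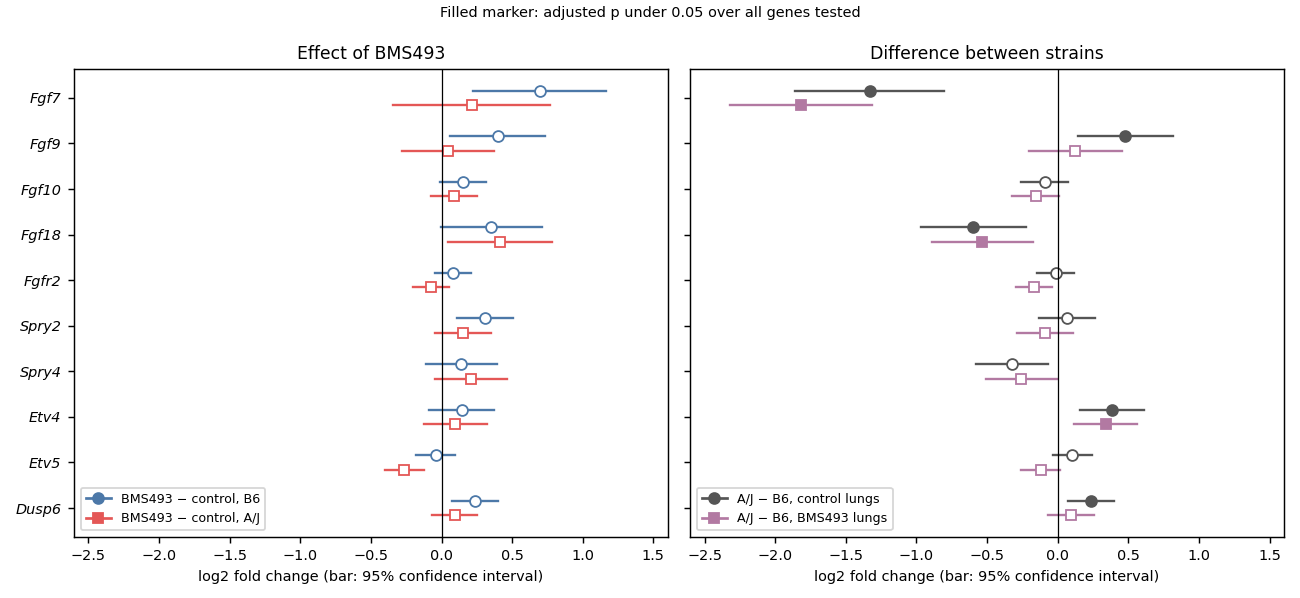
Log2 fold change of each FGF gene with its 95% confidence interval, for BMS493 against control in each strain (left) and for A/J against B6 under each treatment (right); filled markers have an edgeR adjusted p under 0.05 over all genes tested. On the left no marker is filled, while on the right Fgf7 lies at -1.33 and -1.81 and Fgf18 and Etv4 are filled under both treatments.

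Counted over the set, 0 of the 10 FGF genes were called for BMS493 in B6, where 0.423% of the 17276 genes tested were called. In A/J 0 of 10 were called, where the share was 0.486%. Averaged over strains it was again 0 of 10 (1.37% of all genes called), and 0 of 10 for the difference between the strains' responses (0.00579% called). At an unadjusted p under 0.05 the edgeR test held 4 of the 10 in B6 (Fgf7, Fgf9, Spry2 and Dusp6; 9.11% of all genes), 2 in A/J (Fgf18 and Etv5; 6.23%), 6 for the mean of both strains (10.8%) and 1, Etv5, for the difference (3.68%). DESeq2 called 0 in B6, 1 in A/J (Etv5), 0 for the mean and 0 for the difference. The median log2 difference over the 10 genes was 0.19 in B6, 0.095 in A/J and 0.17 averaged over strains, against 0.0070, -0.0019 and 0.0020 over all genes tested. Of the 10 values 9, 8 and 9 were above 0, against 51.9%, 49.3% and 50.8% of all genes. Treated and control libraries overlapped for all 10 genes in both strains (4.71% of all genes did not overlap in B6 and 4.87% in A/J). Of the cell type markers, those of smooth muscle were lower with BMS493: all 5 had negative log2 differences averaged over strains and 3 of the 5 were called (Actg2, Acta2 and Cnn1; edgeR). Their sums were 1037 to 1106 CPM in B6 control and 844 to 1034 in B6 BMS493 libraries, and 834 to 1049 and 800.5 to 910.4 CPM in A/J. The mesothelial marker Upk3b (-0.38, edgeR adjusted p = 0.00789) and the mesenchymal Foxf1 were also called lower for that mean. Epithelial markers had a median log2 difference of 0.21 in B6, 0.041 in A/J and 0.12 averaged over strains, with 8, 6 and 8 of the 11 above 0, and 0 of 11 were called in each (1, 0 and 2 at an unadjusted p under 0.05); the part of any marker in the values of the FGF genes was not tested.

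Between strains 5 of the 10 genes were called in control lungs (16.9% of all genes), with Fgf7 and Fgf18 lower and Fgf9, Etv4 and Dusp6 higher in A/J. With BMS493 3 of 10 were called (20.0% of all genes), the same Fgf7 and Fgf18 lower and Etv4 higher. The medians over the set were 0.024 and -0.14 on the log2 scale, against 0.0081 and 0.0032 over all genes. Libraries did not overlap for 3 of 10 in controls (Fgf7, Fgf18 and Etv4; 24.3% of all genes) and for 1 of 10 with BMS493 (Fgf7; 19.5%). The labels number the libraries 1 to 16, with numbers 1 to 8 and 9 to 16 each holding 2 libraries of every group. With that split as a covariate, the 5 calls in controls remained, with an adjusted p from 0.000463 (Fgf7) to 0.0426 (Fgf9). Reads of both strains were mapped to the same build, GRCm39. Fragments that mapped to several places made up 2.81% to 3.29% of the B6 and 3.62% to 4.06% of the A/J libraries. Reads lost in mapping and a lower level cannot be told apart in these counts, and the part of mapping in the strain differences was not tested.

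Libraries of 1 group also differed from each other across several of the genes at a time. B6 control library 2 was the lowest of its group for 8 of the 10 genes, all but Fgf18 and Fgfr2, and was the most deeply sequenced of its group (24146224 counts). Its epithelial, mesenchymal and endothelial marker sums were also the lowest of the group (1440, 4060 and 1110 CPM, against at least 1499, 4077 and 1147 in the others). Its heart and cartilage sums were the highest (28.8 and 121 CPM). A/J control library 4 was the lowest of its group for 6 genes (Fgf7, Fgfr2, Spry4, Etv4, Etv5 and Dusp6) and was the least deeply sequenced of it (17468843 counts). Library 2 of the B6 BMS493 group was highest for 6 genes (Fgf7, Fgf18, Fgfr2, Spry2, Spry4 and Dusp6) and library 2 of the A/J BMS493 group also for 6 (Fgf7, Fgf10, Fgf18, Fgfr2, Spry2 and Spry4). Those 2 BMS493 libraries were the most deeply sequenced of their groups (23719922 and 22721678 counts), and their epithelial marker sums, 2598 and 1350 CPM, were each the highest of their group. Their endothelial sums were also the highest of their groups (1319 and 985 CPM, against at most 1147 and 866 in the others), and their mesothelial sums (165 and 174 CPM) and erythroid sums (244 and 479 CPM) the lowest; the part of depth and of markers in these levels was not tested.

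To see which genes varied together, the log2 level of each library was taken relative to its group mean, and all 45 pairs of the 10 genes were correlated over 16 libraries, with p from permutation within groups and adjustment over the 45 pairs. Of the pairs, 35 had r above 0, with a median of 0.26 and a range from -0.39 to 0.82. 1 pair, Fgf18 with Spry2, passed for Pearson's r: r = 0.82 (permutation p = 0.00079, adjusted p = 0.0355) and Spearman's rho = 0.79 (permutation p = 0.00125, adjusted p = 0.0281). Without the 2 libraries farthest from the Fgf18 median, r was 0.71, and r relative to the means of group and library number set was 0.81 (adjusted permutation p = 0.529). That permutation has 256 arrangements, and its smallest p before adjustment is 0.0078. Leaving out 1 library gave r from 0.76 to 0.88 and kept an adjusted p under 0.05 in 8 of 16 cases. Fgf7 with Spry4 gave r = 0.77 (permutation p = 0.00450, adjusted p = 0.101) and rho = 0.85 (permutation p = 0.00074, adjusted p = 0.0281), and without the 2 farthest libraries r was 0.73. Fgf10 with Spry2 gave r = 0.68 (adjusted permutation p = 0.137), and the ETS pair Etv4 with Etv5 gave r = 0.54 (adjusted permutation p = 0.137). Among the targets, 9 of 10 pairs had r above 0, with a median of 0.24. Each pair shares its libraries, their depth and their cell make-up.

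**Figure D3:**
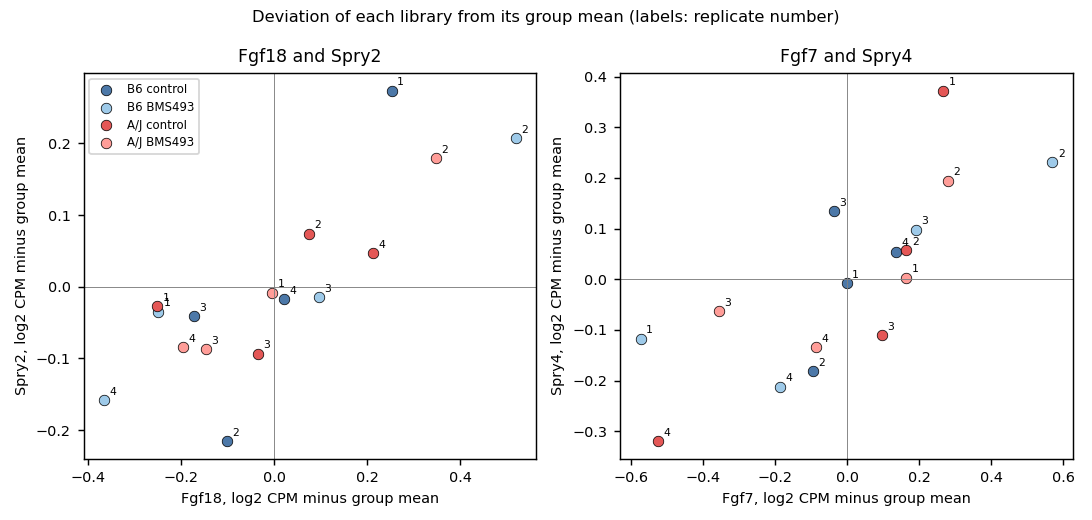
Log2 CPM of each library minus its group mean, for Spry2 against Fgf18 (left) and Spry4 against Fgf7 (right), with colours for the 4 groups and the replicate number beside each of the 16 points. The points rise from lower left to upper right in both panels (r = 0.82 and 0.77), with B6 BMS493 library 2 at the right-hand end of each.

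Outside the set, the genes whose deviations were most like those of the 5 targets were sought among 14534 genes with a mean of at least 1 CPM, by the mean Pearson r with Spry2, Spry4, Etv4, Etv5 and Dusp6 over the 16 libraries with group means taken off. The highest were Cd180 (0.544), a surface receptor gene of immune cells, Tgfb1 (0.543), a growth factor, and Foxc2 (0.541), a transcription factor of vessels and mesenchyme. Cd180 and Foxc2 were low, at a mean of 1.92 and 3.54 CPM, and Tgfb1 stood at 34.9 CPM. The 5 macrophage markers ran from -0.078 to 0.285, below the value of Cd180. Of the genes listed for the pathway or as markers, the next were Bmp4, a signal of the distal bud tip (0.526), Sox9, a distal epithelial factor (0.509), and the endothelial Cdh5 (0.499). The epithelial markers ran from -0.068 (Sox2) to that of Sox9, with Nkx2-1, the lung epithelial regulator, at 0.430; these 5 genes were chosen after their values were seen. These values are a description of libraries that share depth and cell make-up.

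Other genes of the pathway were taken from lists chosen by function. For BMS493 averaged over strains (1.37% of all genes called), edgeR called 0 of 7 other ligands tested (of 18), 0 of 4 other receptors tested (of 6) and 0 of 18 signal transducers. By edgeR 1, 2 and 0 of them had an unadjusted p under 0.05, while DESeq2 called Fgfr4 and none of the rest. Of 14 other feedback and target genes tested, 1 rose: the ETS factor Etv1, at 53.7 ± 3.98 and 64.9 ± 10.02 CPM in B6 control and BMS493 lungs and 46.5 ± 3.84 and 60.6 ± 6.98 CPM in A/J (log2 difference 0.33, SE 0.068, edgeR adjusted p = 0.0103). None of 12 heparan sulfate genes was called for that mean by edgeR (3 at an unadjusted p under 0.05), while DESeq2 called 2, Sulf1 and Sulf2. Sulf1, which trims sulfate groups from heparan sulfate, fell in B6 from 107 ± 2.12 to 75.1 ± 15.3 CPM (-0.51, SE 0.10, edgeR adjusted p = 0.0204). In A/J its log2 difference was -0.042 (interval -0.25 to 0.16), and the difference between the strains' Sulf1 responses gave no call (0.47, edgeR adjusted p = 0.999). Of 16 regulators around Fgf10, Foxf1, a mesenchymal factor downstream of hedgehog signals, fell (-0.33, SE 0.059, edgeR adjusted p = 0.00235), as did Tgfb3 (-0.23, SE 0.051, adjusted p = 0.0181), and 14 were not called. The hedgehog target Gli1 fell in B6 (-0.39, SE 0.079, edgeR adjusted p = 0.0210). For the mean of both strains Gli1 had -0.21 and was not called by edgeR (adjusted p = 0.0630), while DESeq2 called it with Foxf1 and Tgfb3. The difference between the strains' Gli1 responses gave no call (edgeR adjusted p = 0.999). The Foxf1 call for the mean held under all 24 alternatives and that of Etv1 under 23, with an adjusted p of 0.0504 in the first strand column. The Tgfb3 call was lost without B6 control library 1 or 2 or A/J control library 1 (adjusted p = 0.0507 to 0.0529). In B6 the Sulf1 call was lost without any 1 of the 4 control libraries or BMS493 library 3 (0.0512 to 0.0972), and the Gli1 call without control library 2, 3 or 4 or BMS493 library 2 (0.0698 to 0.0985). Medians of these lists lay between 0.0059 and 0.12 on the log2 scale for the mean effect, against 0.17 for the 10 FGF genes and 0.0020 for all genes.

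**Figure D4:**
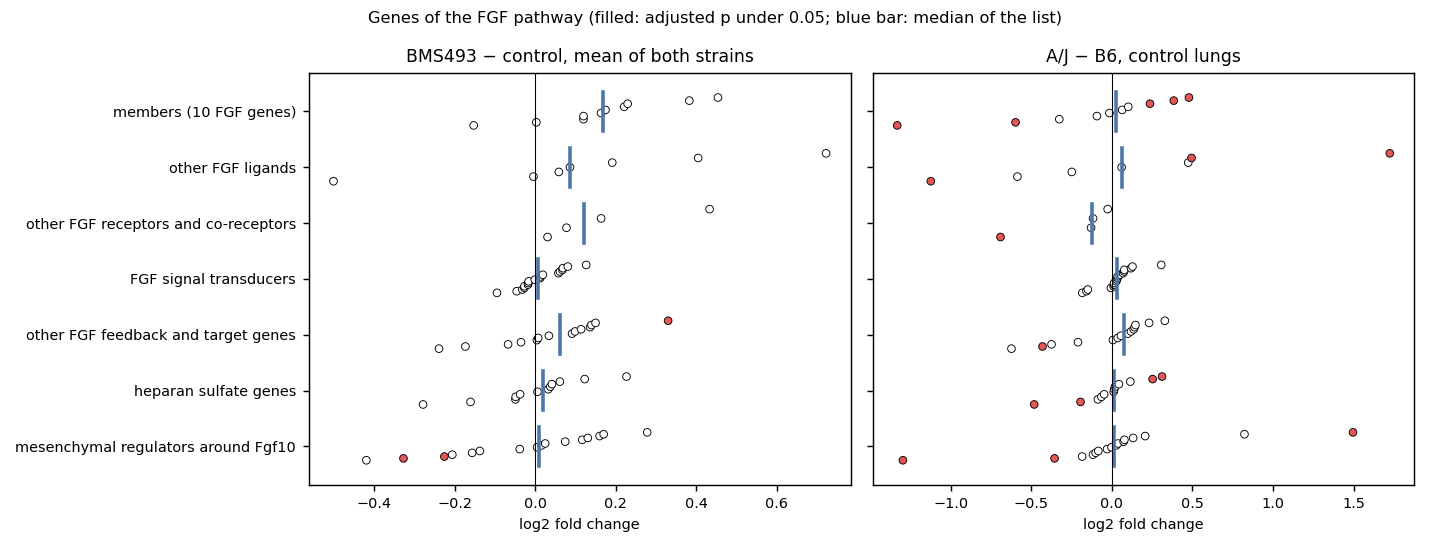
Log2 fold change of each tested gene of the 10 FGF genes and of the 6 other lists, for BMS493 against control averaged over strains (left) and A/J against B6 in control lungs (right); filled points have an edgeR adjusted p under 0.05 and the blue bar is the median of the list. On the left Etv1, Foxf1 and Tgfb3 are the filled points.

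Between strains, where 16.9% of all genes were called in controls and 20.0% with BMS493, the other ligands went in both directions. In controls 3 of 7 were called: the intracellular Fgf13 was lower in A/J (log2 difference -1.12, edgeR adjusted p = 3.21e-05), while Fgf5 (1.72, adjusted p = 0.00277) and Fgf2 (0.49, adjusted p = 0.00730) were higher. With BMS493 these 3 and Fgf12 (0.82, edgeR adjusted p = 0.0240) were called, and Fgf5 reached at most 1.28 CPM in a group mean. Among transducers the docking protein gene Gab1 was called lower in A/J with BMS493 (-0.27, edgeR adjusted p = 0.00070) and 17 of 18 were not called by edgeR. DESeq2 called Gab1 in both comparisons, and Ptpn11 with BMS493. Of the feedback genes the ERK phosphatase Dusp7 was lower in A/J under both treatments (-0.43 and -0.27, edgeR adjusted p = 0.000176 and 0.0120) and Dusp4 with BMS493 (-0.48, adjusted p = 0.0161), while Dusp6 was higher in A/J controls. By edgeR, 4 of 12 heparan sulfate genes were called in each comparison. Sulf1 and Hs6st2 were higher and the syndecan Sdc4 was lower in both, with Ext1 lower in controls and Hspg2 lower with BMS493. DESeq2 called Ext1 with BMS493 as well. Around Fgf10, the factor Isl1 was higher in A/J (1.5 and 1.65, edgeR adjusted p = 7.32e-05 and 1.51e-05) and Wnt2b lower (-1.30 and -0.91, adjusted p = 0.00052 and 0.00901) under both treatments; Tgfb3 was lower in controls (-0.36), and with BMS493 Gli1 was higher (0.39) and Tgfbr2 lower (-0.24). Several of these calls rested on single libraries. In controls, the Ext1 call was lost without B6 library 1 or A/J library 3, that of Hs6st2 without B6 library 4 or A/J library 4, that of Sdc4 without B6 library 1 or A/J library 4, and that of Sulf1 when any 1 of 8 libraries was left out, with adjusted p up to 0.112. With BMS493, the calls of Fgf5, Fgf12 and Tgfbr2 were each lost on leaving out any 1 of 4 libraries, that of Dusp4 with any 1 of 3, that of Hspg2 with any 1 of 8 and that of Hs6st2 with any 1 of 9, with adjusted p up to 0.173. The calls of Fgf13, Fgfr3, Isl1 and Wnt2b held under all 25 alternatives in both comparisons.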

How the data were processed

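Per the labels' protocols, RNA was isolated with the RNeasy kit and poly(A)-selected; per the submitters' processing notes, FastQC, cutadapt and STAR were used with the GRCm39 build, with versions and annotation not given in the sources used here. The authors deposited raw counts per gene for each of the 16 libraries, 1 column without strand, used here, and 1 for each strand. Both strand columns held about equal counts (51.0% to 52.0% in the first), so antisense overlaps cannot be told apart. The 4 lines that are not genes were left out; 71.7% to 76.9% of fragments were in genes. Symbols came from GENCODE M21, with 51884 of 57180 identifiers matched (98.9% of counts); exon lengths came from the same release, and promoters from RefSeq (GRCm38.p6).

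Groups followed strain and treatment in the labels. edgeR 4.0.16 (R 4.3.3; filterByExpr, TMM scaling, robust quasi-likelihood fit with 1 coefficient per group over 16 libraries) tested 17276 genes in 6 contrasts, and p-values were adjusted over all of them by Benjamini-Hochberg; called means an adjusted p under 0.05. CPM values are TMM scaled. Precision is given as 95% confidence intervals of log2 differences, and counts carry counting error as well. On simulated data with 200 changed genes among 17276, the B6 BMS493 contrast called 76.0% of 1.5-fold and 80.0% of 2-fold increases and the A/J contrast 66.0% and 82.0%, and they called 50.0% and 44.0% of decreases to 0.75-fold. Pair correlations used 100000 permutations within groups. DESeq2 1.42.0, other filters, scaling, strand columns, covariates and leaving out each library were the alternatives.

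The 10 genes and the gene lists were chosen with earlier results of these data known. Named outside the set were Fgfr1, Fgfr3 and Fgfr4, every gene of the pathway and retinoic acid lists called in any contrast (at most the 5 of lowest p per list and contrast), Cyp26b1 and Rarb, and the 3 genes most like the targets; the rule also covers called markers, which are given as sums and counts and named only in part; these, Bmp4, Sox9, Sox2 and Nkx2-1 were named after their values were seen. Replicate numbers do not pair the libraries.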

Additional observations from a re-analysis of the deposited data

Results flagged for a closer look

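Of 40 groups of 4 libraries (10 genes in 4 groups), 1 held a library far from its fellows: Fgfr2 in A/J control lungs, where library 2 had 281 CPM and the other 3 had 237 to 244 CPM. The gap made up 0.839 of the range of the group, above Dixon's 95% limit for 4 values. Chance gives such a library in about 1 of 20 groups.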

How the results depend on the processing

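Of 1480 recomputed log2 differences of the 10 genes over the alternatives, 1403 kept their direction and their side of the threshold, 31 lost a call, 21 gained one and 25 changed sign, all among values that were not called. Most of the 1480 belong to differences without a call. The 31 losses all fell among the strain calls, 5 in controls and 3 with BMS493, each recomputed under 25 alternatives. The strain calls of Fgf7 held in every alternative run. Depth limits Fgf7 most, at 14 counts in 1 A/J control library.

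Members called for BMS493 in A/J numbered 1 (Etv5) with DESeq2, without the filter on low counts and with the second strand column, and 0 to 1 leaving out 1 library. For the mean of both strains they numbered 3 without the filter (Fgf18, adjusted p = 0.0285; Spry2, 0.0211; Etv5, 0.0474) and 0 to 1 leaving out 1 library. Between strains in controls they numbered 6 without the filter, where Spry4 joined (adjusted p = 0.0147), 3 with the first strand column and 2 to 5 leaving out 1 library, the lowest without B6 control library 1 or 2. With BMS493 they numbered 1 when only the 8 libraries compared were fitted or with the second strand column, and 1 to 5 leaving out 1 library. Pairs of genes past the threshold numbered 2 with Spearman's rho, 0 relative to the means of group and library number set, and 0 to 2 leaving out 1 library.

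Genes called in all, 73 for BMS493 in B6, numbered 162 with DESeq2, 260 without the filter and 27 with only the libraries compared, and 27 to 201 leaving out 1 library. In A/J the 84 became 158, 178 and 133, and 52 to 121. For the mean the 237 became 396 with DESeq2 and 487 without the filter, and 165 to 371. For the difference of responses the 1 became 2 and 12, and 1 to 2. The cause was not tested.

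Signs changed for Fgfr2, mean BMS493 effect, to -0.014 with the second strand column, and leaving out 1 library gave -0.013 to 0.033; Fgfr2 between control strains went to 0.0062 with the first strand column and ran from -0.076 to 0.013 leaving out 1 library. Fgf9 for BMS493 in A/J went to -0.063 with the first strand column and ran from -0.048 to 0.13, and the Fgf18 difference of responses went to -0.0999 and ran from -0.072 to 0.28. Leaving out 1 library, Etv4 for BMS493 in B6 ran from -0.0076 to 0.25 and its difference of responses from -0.15 to 0.11, the Spry4 difference of responses from -0.029 to 0.21, and Spry2 between control strains from -0.0080 to 0.17.

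Same-numbered libraries did not deviate together (r from -0.15 to 0.15 over 24 pairs, 3 above 0.1). With the number as a replicate block, 0 FGF genes were called for BMS493 in either strain, 5 between strains in controls and 4 with BMS493, where Fgfr2 joined (adjusted p = 0.0462).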
